A study of Mus musculus with 6 samples.

Results

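Btnl9 encodes a butyrophilin-like member of the immunoglobulin superfamily, and it is described here across subsets of thymic endothelial cells (ECs) together with the butyrophilin Btn2a2 and the B7 family ligands Cd274 (PD-L1), Pdcd1lg2 (PD-L2), Icosl (ICOS ligand) and Cd276 (B7-H3). The 6 genes were found by their symbols among 24457 genes on chromosomes, each in 1 row, and 4 of them passed a filter on low values that left 11717 genes to test. Btnl9 was chosen by its measured FPKM, which falls in type III ECs, so its values against type III are given as a description, with no test. RNA was sequenced from type I (Ly6c+ Selp-), type II (Ly6c+ Selp+) and type III (Ly6c- Selp+) ECs, in 2 libraries for each subset, 6 in all. All came from wildtype female C57BL/6 mice, labelled as 4 to 6 weeks old, with no treatment. The cells were sorted as CD31+CD45-EpCAM- at a purity of at least 90%. Nothing in the labels says whether the 2 libraries of a subset came from separate mice, so the p-values measure the spread between these libraries, which may be technical. Values are FPKM, the fragments of a transcript scaled by its length and by the depth of the library, so levels of different genes can be set side by side.

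B7 ligands and butyrophilins are surface proteins with immunoglobulin domains that T cells meet on antigen-presenting, epithelial, stromal and endothelial cells. PD-L1 and PD-L2 bind the inhibitory receptor PD-1, and ICOS ligand binds the costimulatory receptor ICOS. B7-H3 and BTN2A2 have been described as modulators of T-cell activation, mostly as inhibitors. PD-L1 is known on endothelium, where interferon gamma induces it.

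In short, Btnl9 was the most abundant of the 6 transcripts in type I ECs and nearly absent from type III ECs, with type II ECs between them. Cd276 was low and had most of its fragments in type I ECs, Cd274 was abundant in all subsets, Icosl was low in all, Pdcd1lg2 was near the limit of detection and Btn2a2 was listed at 0 throughout.

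The sort was checked on its own genes. Selp, which encodes P-selectin, had an FPKM of 6.54 ± 1.89 (SD, n = 2) in type I, 364 ± 72.5 in type II and 591 ± 92.8 in type III ECs. Ly6c1, which encodes Ly6C, went from 851 ± 225 through 436 ± 121 to 79.7 ± 28.2. The summed FPKM of a library was between 221458 and 300932, and the fragments read back from the deposited intervals summed to between 1452476 and 2423171. A median gene with 3 fragments had an FPKM between 0.313 and 0.541, and differences between levels below this rest on a few fragments. The endothelial markers Pecam1 and Cdh5 were at 414 or more in every library. Markers of leukocytes were present as well, and their sums were higher in replicate 1 of each subset. Not every marker followed, as Rag1 had 3.70 and 6.15 in type II. The FPKM of Ptprc, which encodes CD45, was 10.6 and 2.88 in the type I libraries, 6.05 and 4.47 in type II and 28.9 and 7.81 in type III. The 12 markers of the T lineage summed to between 31.9 and 210. Their median log2 difference from type I to type III was 0.96. It was 0.83 for markers of dendritic cells, macrophages and B cells, and 0.08 for all tested genes. Limma called no T lineage marker without the replicate number as a block. With the block it called Cd3g (1.66, adjusted p = 0.0069) and Cd3d (1.22, 0.024) higher in type III than in type I, where 4.40% of tested genes were. Among 10 markers of blood endothelium, limma called Kdr (-1.49, adjusted p = 0.0079) and Cldn5 (-3.70, adjusted p = 0.00025) lower and Eng (1.10, adjusted p = 0.04) higher in type III than in type I ECs, on the log2 scale, where 4.14% of all tested genes were called in either direction. With the replicate number as a block Flt1 was lower as well (-0.97, limma adjusted p = 0.013), where 3.89% of tested genes were called lower. Cldn5 was also called lower in type III than in type II (-2.07), with a limma adjusted p of 0.041 without the block and 0.0028 with it. The call of Eng was lost with any 1 of the 6 libraries left out (limma adjusted p = 0.089 to 0.24) and that of Kdr without either type III library (0.082 and 0.058).

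The promoters of Btnl9 and Cd274 are shown because these genes are the most abundant of the group and differ most in their pattern. RefSeq gives 250 bases before and 50 bases after the transcription start. The start that the authors' gene models use on mm9 is the same base for both genes. Btnl9 was at chr11:49187040-49187339 and Cd274 at chr19:29367188-29367487 of GRCm38.p6, on the minus and the plus strand, and capitals mark the only matches to the motifs named after the sequences.
Btnl9: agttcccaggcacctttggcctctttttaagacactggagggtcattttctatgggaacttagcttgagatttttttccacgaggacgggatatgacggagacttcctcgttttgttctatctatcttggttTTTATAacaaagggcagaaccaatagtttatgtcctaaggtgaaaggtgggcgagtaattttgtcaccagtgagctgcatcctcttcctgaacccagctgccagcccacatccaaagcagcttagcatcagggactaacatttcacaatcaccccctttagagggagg
Cd274: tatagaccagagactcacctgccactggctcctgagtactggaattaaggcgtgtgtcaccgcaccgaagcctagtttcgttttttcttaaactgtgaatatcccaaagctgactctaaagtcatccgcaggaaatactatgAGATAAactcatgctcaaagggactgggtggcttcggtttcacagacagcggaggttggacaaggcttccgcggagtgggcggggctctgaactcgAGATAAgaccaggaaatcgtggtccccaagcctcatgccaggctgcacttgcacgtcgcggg

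Both strands of each promoter were searched for 8 motifs. These were the STAT motif TTCNNNGAA, the IRF motif of GAAA and again GAAA with 2 bases between them, the NF-kB motif of GGGA and CC with 4 bases between them, the RBPJ motif GTGGGAA of Notch targets, the ETS motif CCGGAAG, the SOX motif AACAAT, the GATA motif AGATAA and the TATA motif TATAAA. In the Btnl9 promoter the only match was TATAAA on the opposite strand at position -118 from the start, and 13.6% of all 32851 RefSeq promoters hold this motif. The Cd274 promoter held AGATAA at positions -108 and -12, a motif found in 11.2% of promoters. The GC content was 46.0% for Btnl9 and 52.7% for Cd274, where the median promoter has 52.7%. Cd276 stood apart with 78.3%, more than 98.2% of promoters, but the authors' model of Cd276 starts 14093 bases downstream of the RefSeq start, so this promoter is not the start that was measured. The promoters of Btn2a2, Icosl and Pdcd1lg2 each held a match to the NF-kB motif, which is in 20.7% of promoters. A match is only a match of letters in this window.

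Btnl9 lies at chr11:48981827-49000591 of mm9 (minus strand), and its longest protein-coding model in GENCODE M1 has 10 exons. No other gene of that annotation overlaps it. The FPKM of Btnl9 was 48.9 and 46.7 in the type I libraries, 18.8 and 10.1 in the type II libraries, and 0.591 and 0.229 in the type III libraries. The 3 subsets did not overlap. Of all tested genes, 17.1% were lower without overlap in type III than in type I, and 13.3% in type III than in type II. The type I libraries of Btnl9 lay close together, while type II replicate 1 was well above replicate 2. In the type I libraries Btnl9 was at or above 91.5% and 93.5% of all tested genes, against 4.69% and 1.83% in type III. Behind the values were 343 and 414 fragments in type I, 100 and 84 in type II, and 3 and 2 in type III. The type III level is thus at the limit of detection, and the deposited 95% intervals of both type III libraries reach down to 0.

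The difference of the means of log2(FPKM + 1) for Btnl9 was -5.12 from type I to type III and -3.41 from type II to type III. These were ranks 4 and 3 of 11717 genes from the most negative. Since the gene was chosen for this fall, neither carries a test, and the background of 2.05% of tested genes called lower in type III than in type I ECs has no bearing on it. Between replicates the values were alike, with -4.97 in replicate 1 and -5.28 in replicate 2 for type III against type I. By fragments alone, the level was 132 times as high in type I as in type III (exact 95% interval 56.1 to 406), and 37.2 times as high in type II as in type III (15.7 to 116). These intervals pool the 2 libraries of a subset and hold counting error only, not the spread between libraries. They come from the values the gene was chosen for, so they are a description and no test of the fall. The pseudocount sets the size of a log2 difference to a level this low, and the difference from type I to type III was -6.65 with a pseudocount of 0.1.

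The step of Btnl9 from type I to type II ECs was not itself the ground of the choice, and its limma values are given. The choice did set type III against the type I and type II levels. These values are thus no independent test and are given as a description. Both type II libraries were below both type I libraries, as for 20.6% of the tested genes. On the log2(FPKM + 1) scale the difference was -1.72 (standard error 0.34, 95% interval -2.49 to -0.94). It was -1.33 within replicate 1 and -2.10 within replicate 2. It did not pass the threshold of 0.05 (limma adjusted p = 0.099), which 8 genes did in this direction, 0.0683% of those tested (0.324% passed in the other direction and 0.393% in either). With the replicate number as a block it passed, with a limma adjusted p of 0.020, where 84 genes, 0.717%, did so (0.845% rose and 1.56% passed in either direction). Across the alternatives tried the adjusted p ranged from 0.02 to 0.58. By fragments, the level was 3.53 times as high in type I as in type II (exact 95% interval 3.00 to 4.17, which holds counting error only). Type II ECs were at 0.34 of the way from type I to type III on the log2 scale.

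**Figure D1:**
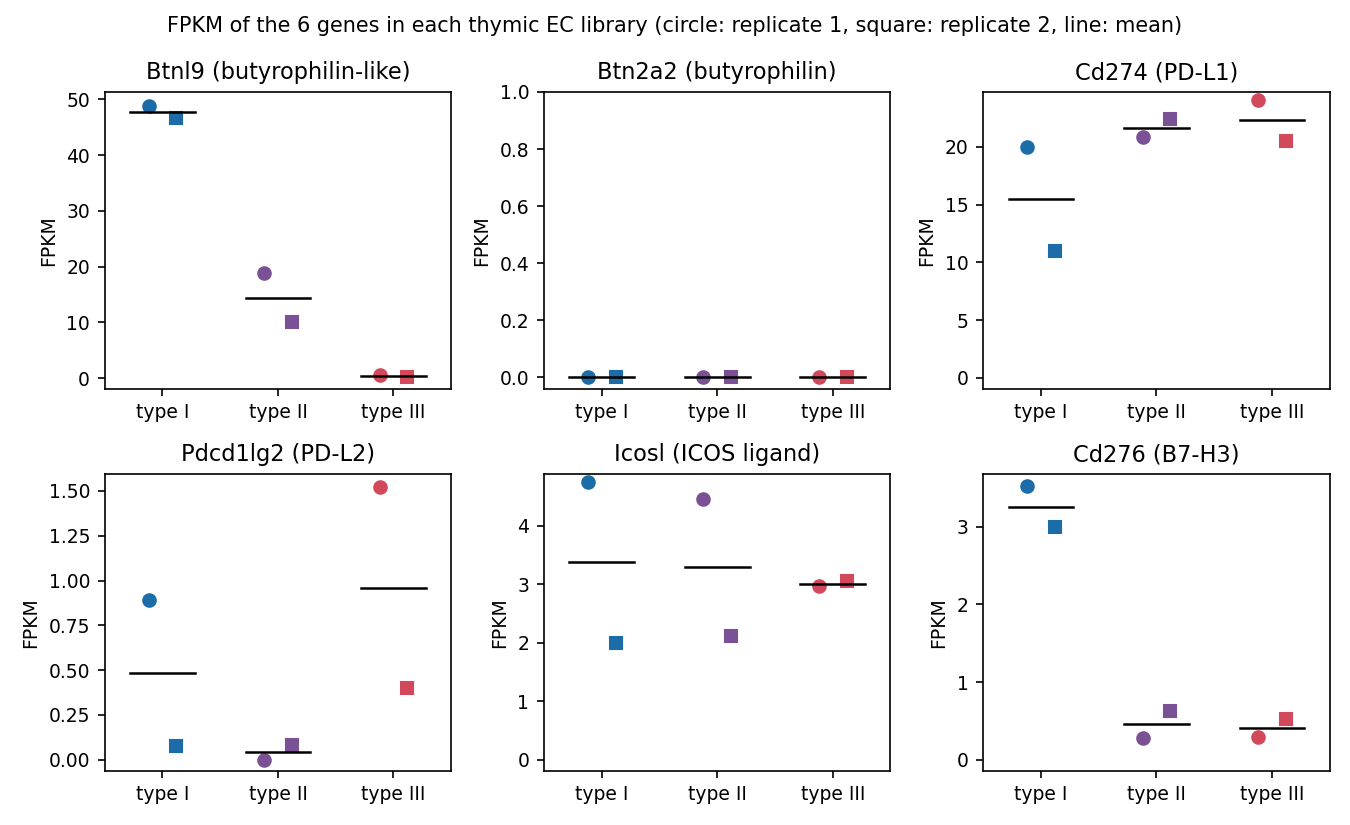
FPKM (vertical axis, linear, a scale of its own for each gene) of the 6 genes in the 2 libraries of type I, type II and type III ECs, with circles for replicate 1, squares for replicate 2 and a line at the mean. Btnl9 goes from 48.9 and 46.7 in type I to 0.591 and 0.229 in type III, Cd276 is above 1 in type I alone, and Btn2a2 is at 0 in all 6 libraries.

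The genes whose pattern over the 6 libraries was closest to that of Btnl9 were found by the root mean square difference of log2(FPKM + 1) after each gene was centred on its own mean. The median of this difference over 11713 genes was 2.20, and 34 genes were within 1.00. Closest was Sema3g, a secreted semaphorin, at 0.18. Its FPKM was 76.6 and 84.4 in type I, 32.8 and 23.2 in type II, and 1.40 and 0.965 in type III. Next was Aqp7, a channel for water and glycerol, at 0.27, with 69.4 and 49.7 in type I, 20.7 and 11.3 in type II, and 1.73 and 0.223 in type III. Then came Hba-a1 at 0.29, an alpha-globin gene with a near-identical copy, so its values are uncertain, and it was listed at 0 in both type III libraries. Mcf2l, Rgcc, Slc26a10, Clic5, Car7, Cldn5 and Esm1 followed at 0.46 to 0.69. Cldn5, the main claudin of endothelial tight junctions, was the most abundant of the 10 genes, with a mean FPKM of 387 in type I, 127 in type II and 29.4 in type III ECs. These genes were picked for this pattern, so that they share the order of the subsets with Btnl9 follows from the choice.

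**Figure D2:**
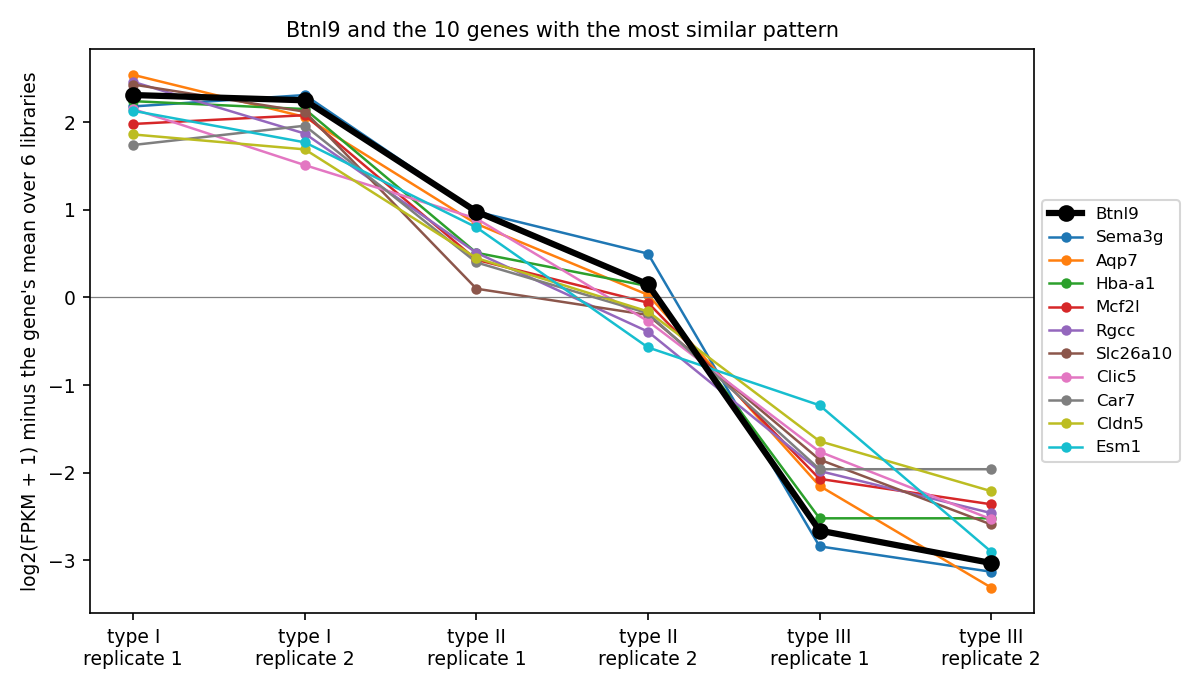
Log2(FPKM + 1) minus the mean of the gene over the 6 libraries (vertical axis) for Btnl9 (thick black line) and the 10 genes most like it, in each library (horizontal axis); the lines only join the points of a gene. Sema3g runs closest, at a root mean square difference of 0.18, and Esm1 is the last of the 10 at 0.69.

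Cd276, the B7-H3 gene, was the other member that was lower outside type I ECs. It lies at chr9:58372107-58388747 of mm9, also on the minus strand. Its FPKM was 3.52 and 2.99 in type I, 0.282 and 0.631 in type II, and 0.298 and 0.520 in type III ECs. The type I libraries were above all 4 others, while type II and type III overlapped. Fragments behind the values were 33 and 34 in type I, 2 and 7 in type II, and 2 and 6 in type III. The gene passed the filter on low values only through the type I libraries, where it is high, so its presence among the tested genes already favours a difference, and its p-values against type I are given as a description and support nothing.

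From type I to type III the log2 difference of Cd276 was -1.60 (standard error 0.38, 95% interval -2.45 to -0.74), with a limma adjusted p of 0.052. Without the filter, where every gene above 0 in any library was tested, it was 0.062, and over all alternatives it ranged from 0.028 to 0.25, with 0.029 under the replicate block. The background of genes called lower in that comparison was 2.05%, and 3.89% with the block, and 17.1% of tested genes were lower without overlap. From type I to type II the difference was -1.56 (95% interval -2.41 to -0.70, limma adjusted p = 0.18), and with the block the adjusted p was 0.089 in limma. Between type II and type III it was -0.04, with an interval from -0.89 to 0.81. By fragments, type I was 6.54 times as high as type II (exact 95% interval 3.25 to 14.9) and 7.37 times as high as type III (3.54 to 17.8). These intervals pool the 2 libraries of a subset and hold counting error only. Like the p-values against type I, they are a description and support nothing. While Btnl9 was at 0.34, Cd276 was at 0.97 of the way to type III in type II ECs already.

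Markers of fibroblasts and mural cells also differed between the subsets. All 12 on the list passed the filter, and their summed FPKM was 739 and 359 in type I, 850 and 550 in type II, and 262 and 311 in type III. Between type I and type III 2 of the 12 were called lower by limma and none higher, Pdgfrb (-1.85, adjusted p = 0.013) and Notch3 (-1.73, adjusted p = 0.021), where 2.05% of all tested genes were called lower and 2.09% higher. With the replicate block 3 were lower, where 3.89% of all tested genes were. Rgs5 of pericytes was the one added (-2.06, limma adjusted p = 0.0051, and 0.057 without the block). The calls of Pdgfrb and Notch3 without the block did not hold without type III replicate 1 (-1.61 and -1.27) or without type I replicate 1 (-1.52 and -1.50). That of Notch3 was also lost without type I replicate 2 (-1.96). Pdgfrb, the PDGF receptor of pericytes, had 39.0 and 24.2 in type I and 33.5 and 25.1 in type II, and 6.40 and 9.43 in type III. Some other markers on the list were also lower in type III than in type I, without a call. These were Cspg4 (-0.86, limma adjusted p = 0.42), Col1a1 (-0.36, 0.70), Col1a2 (-0.54, 0.52), Col3a1 (-0.52, 0.50) and Pdgfra (-0.16, 0.94). The rest went the other way. The log2 difference from type I to type III was 1.16 for Acta2 (limma adjusted p = 0.18) and 0.73 for Myh11 (0.54), both of smooth muscle, and 0.23 for Dcn (0.91) and 0.16 for Lum (0.93), both of fibroblasts. The part of these cells in the Cd276 and Btnl9 values was not tested. In such bulk samples, fewer cells of a type and less RNA per cell cannot be told apart.

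Cd274, which encodes PD-L1, was the most abundant member in type III ECs. It lies at chr19:29441928-29462584 of mm9 (plus strand), and Pdcd1lg2 begins 22824 bases after its end on the same strand. The FPKM of Cd274 was 20.0 and 11.0 in type I, 20.9 and 22.4 in type II, and 24.1 and 20.5 in type III ECs. Of the 6 libraries, 5 were between 20.0 and 24.1, and type I replicate 2, which also had the lowest summed FPKM, was apart at 11.0. Each value rested on 148 to 284 fragments, and the gene was at or above 71.4% to 85.3% of the tested genes.

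The log2 difference of Cd274 was 0.55 from type I to type III (95% interval -0.16 to 1.26, limma adjusted p = 0.52). Replicate 1 alone gave 0.26 and replicate 2 alone 0.84. From type I to type II it was 0.51 (-0.19 to 1.22, limma adjusted p = 0.83), and from type II to type III 0.03 (-0.67 to 0.74, limma adjusted p = 0.98). None passed, where limma called 4.14% of tested genes in either direction from type I to type III (2.09% higher, and with the block 8.29% and 4.40%) and 0.222% from type II to type III (0.0939% higher and 0.128% lower, and with the block 1.95%, 1.06% and 0.896%). Both type II and both type III libraries were above the type I libraries, as for 13.0% and 20.7% of tested genes. Both intervals against type I still hold an increase of more than 1.00 on the log2 scale. Type I replicate 2 decides the size, since without it the differences from type I were 0.14 for type III and 0.11 for type II.

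**Figure D3:**
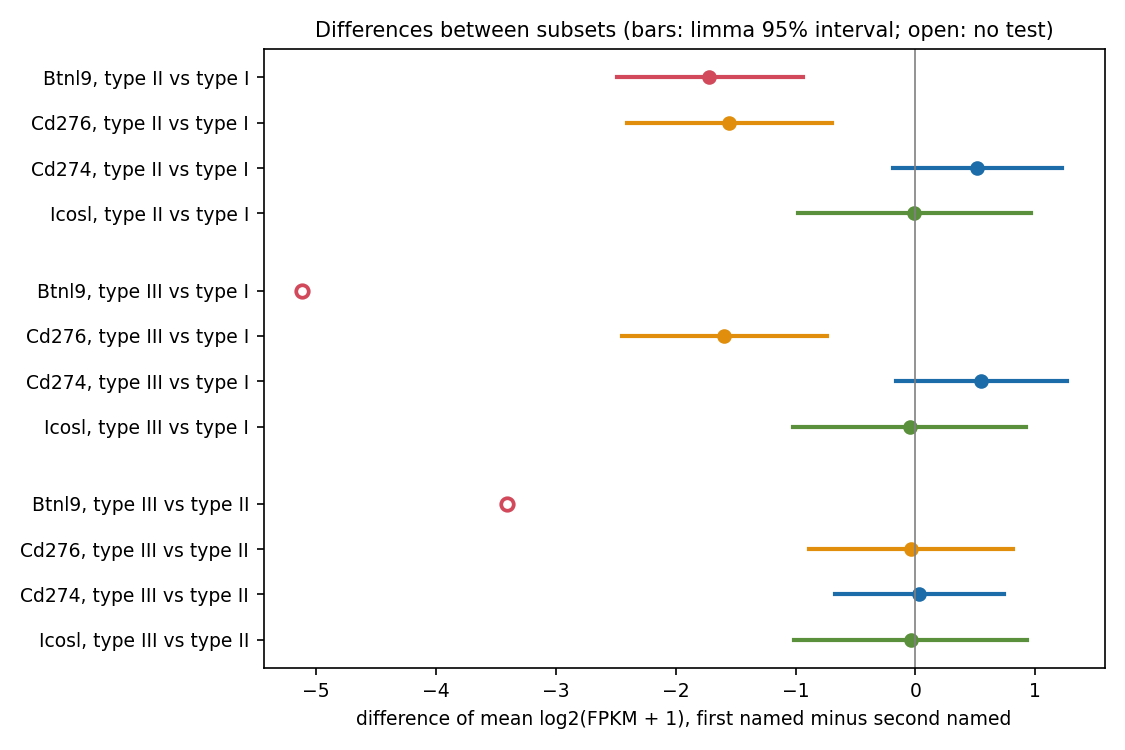
Differences of mean log2(FPKM + 1) between subsets (horizontal axis) for the 4 genes that passed the filter, with the limma 95% interval as a bar; open circles mark Btnl9 against type III, which was not tested. Btnl9 and Cd276 lie below 0 for type II against type I, at -1.72 and -1.56, while every interval of Cd274 and Icosl includes 0.

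Icosl, the ligand of ICOS, lies at chr10:77532113-77542270 of mm9 (plus strand). Its FPKM was 4.75 and 2.00 in type I, 4.46 and 2.11 in type II, and 2.97 and 3.05 in type III ECs, on 17 to 38 fragments. The subsets overlapped, and in type I and type II replicate 1 was above replicate 2. The log2 differences were -0.05 from type I to type III (95% interval -1.02 to 0.92), -0.01 from type I to type II (-0.98 to 0.96) and -0.04 from type II to type III (-1.01 to 0.93). At this depth a change of up to about 1 on the log2 scale in either direction could not be seen.

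Pdcd1lg2, which encodes PD-L2, lies at chr19:29485409-29547417 of mm9 and did not pass the filter. Its FPKM was 0.892 and 0.0794 in type I, 0 and 0.0836 in type II, and 1.52 and 0.402 in type III ECs, with 9, 1, 0, 1, 11 and 5 fragments in that order. It was highest in replicate 1 of type III and of type I. The same 2 libraries had the highest sums of 14 markers of dendritic cells, macrophages and B cells. The summed FPKM was 313 and 70.7 in type I, 128 and 55.9 in type II, and 481 and 110 in type III. Lyz2 was the largest part in these 2 libraries, at 177 in type I replicate 1 and 296 in type III replicate 1. Not every marker followed the sum, as Zbtb46 was lowest in type III replicate 1, at 7.31. All 14 were detected, 11 passed the filter and none was called in any comparison without the block. With it, limma called Zbtb46 lower in type III than in type I (adjusted p = 0.035), where 3.89% of tested genes were. It called Fcer1g higher in type III than in type II (adjusted p = 0.037), where 1.06% were. Csf1r, the CSF-1 receptor of macrophages, had 11.3 and 1.18 in type I, 5.60 and 2.27 in type II, and 16.7 and 3.45 in type III. Itgax, which encodes CD11c, was between 0.351 and 3.84, and the B cell marker Ms4a1 was at 0 in both type II libraries. The part of these cells in the Pdcd1lg2 values was not tested.

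Btn2a2, at chr13:23568932-23580726 of mm9 (minus strand), was listed at 0 in all 6 libraries. No fold was computed. Reads shared with similar genes may have been handled in a way the methods leave unsaid, so the zeros do not show that the gene is silent.

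In the order of their mean FPKM in type I ECs the members were Btnl9 (47.8 ± 1.53), Cd274 (15.5 ± 6.38), Icosl (3.38 ± 1.94), Cd276 (3.26 ± 0.374) and Pdcd1lg2 (0.485 ± 0.574), all SD with n = 2. Icosl and Cd276 did not differ beyond their spread there. In type II ECs the order was Cd274 (21.7 ± 1.09), Btnl9 (14.5 ± 6.15), Icosl (3.29 ± 1.66), Cd276 (0.456 ± 0.247) and Pdcd1lg2 (0.0418 ± 0.0591). In type III ECs Cd274 (22.3 ± 2.55) was followed by Icosl (3.01 ± 0.0515) and then by Pdcd1lg2 (0.963 ± 0.792), Btnl9 (0.410 ± 0.256) and Cd276 (0.409 ± 0.157), whose ranges overlapped. Thus Btnl9 was above Cd274 in both type I libraries and below it in the libraries of the other two subsets.

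Beyond the members, 20 further B7 and butyrophilin family genes were listed, of which 19 were found and 7 were at 0 in all libraries. Only Vsir, Cd86 and Skint10 passed the filter, and limma called none of the 3 in any comparison. Vsir encodes VISTA, an inhibitory B7-like receptor, and was the most abundant of them. Its FPKM was 23.7 and 16.7 in type I, 24.3 and 23.5 in type II, and 32.3 and 33.2 in type III ECs, a log2 difference of 0.69 from type I to type III (standard error 0.26, limma adjusted p = 0.26). The type III libraries were above the other 4, and a share of 20.7% of tested genes was without overlap in this direction against type I. Cd86, a ligand of CD28 on antigen-presenting cells, was at 3.13 and 0.437 in type I, 2.16 and 0.345 in type II, and 8.20 and 1.55 in type III, and Cd80 was above 1 only in type III replicate 1, at 3.58. As for Pdcd1lg2, both were highest in the library with the highest leukocyte marker sum. That library also had the highest summed FPKM of T lineage (210), thymic epithelial (87.9) and lymphatic endothelial (30.1) markers. The source of the Cd80 and Cd86 values was not tested.

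**Figure D4:**
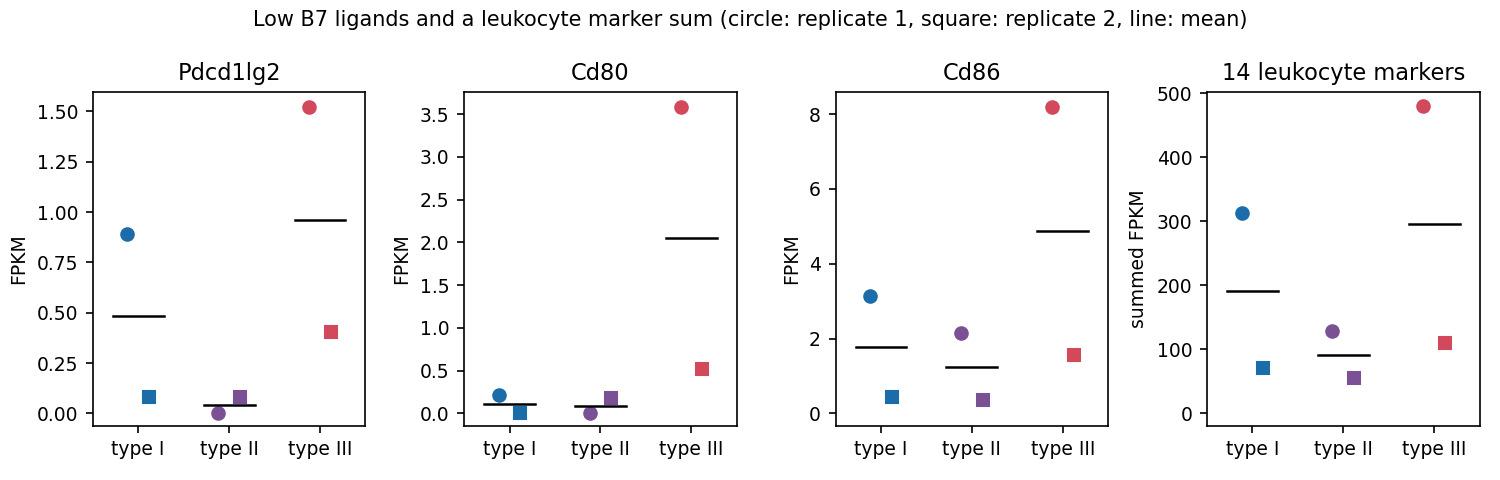
FPKM of Pdcd1lg2, Cd80 and Cd86 and the summed FPKM of 14 markers of dendritic cells, macrophages and B cells (vertical axes, linear) in each library, with circles for replicate 1, squares for replicate 2 and a line at the mean. Type III replicate 1 is the highest in all panels, at 1.52, 3.58, 8.20 and 481. Of the sum of 481, Lyz2 alone gives 296.

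Receptors listed with the B7 family were also looked up, and not all of them bind the ligands described here. Of Cd28, Ctla4, Pdcd1, Icos, Btla and Cd160, only Cd28 passed the filter, with 0.929 to 5.40 over the libraries, and it was not called. Pdcd1, which encodes PD-1, was between 0 and 1.03 and Icos between 0.167 and 1.31.

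Among 28 other surface or secreted regulators of T cells, 18 passed the filter. Between type I and type III ECs limma called 1 higher and 1 lower, against a background of 2.09% and 2.05% of tested genes, and none in the other comparisons. With the replicate block 2 were higher and 1 lower, against 4.40% and 3.89% of tested genes. Fgl2 was then also called higher in type III than in type II (2.02, limma adjusted p = 0.043), where 1.06% of tested genes were. The median log2 difference of the 18 from type I to type III was 0.33, where that of all tested genes was 0.08. Fgl2, a fibrinogen-like protein that can be secreted and binds an inhibitory Fc receptor, had 1.96 and 0.786 in type I, 2.83 and 6.25 in type II, and 21.8 and 19.1 in type III ECs. It rose by 3.22 on the log2 scale from type I to type III (standard error 0.40, limma adjusted p = 0.0025), and it passed under all 13 alternatives tried, with an adjusted p of 0.0011 to 0.027. Ceacam1, an adhesion molecule with an inhibitory tail, had 25.5 and 18.9 in type I, 14.9 and 11.0 in type II, and 7.26 and 9.23 in type III, a log2 difference of -1.32 (standard error 0.30, limma adjusted p = 0.041). This call was lost with any 1 of the 6 libraries left out (limma adjusted p = 0.064 to 0.27). Entpd1, the ectonucleotidase CD39, had 58.2 and 34.0 in type I, 77.4 and 62.9 in type II, and 104 and 81.1 in type III, with a log2 difference of 1.03 between type I and type III (limma adjusted p = 0.12). It passed under 4 of 13 alternatives, with the replicate block (limma adjusted p = 0.011), quantile normalization (0.029), rescaling to the same sum (0.032) and without type I replicate 1 (0.04). With any other library left out it did not, at up to 0.60.

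**Figure D5:**
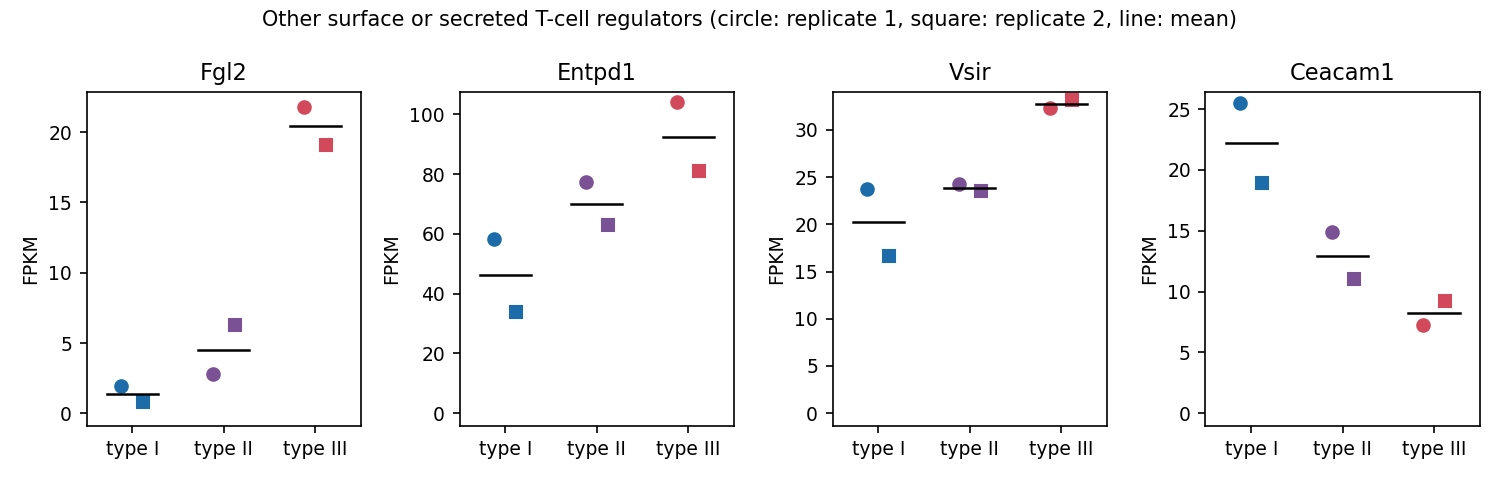
FPKM (vertical axis, linear, a scale of its own for each gene) of Fgl2, Entpd1, Vsir and Ceacam1 in the 2 libraries of each subset, with circles for replicate 1, squares for replicate 2 and a line at the mean. Fgl2 goes from 1.96 and 0.786 in type I to 21.8 and 19.1 in type III, and Ceacam1 from 25.5 and 18.9 to 7.26 and 9.23.

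The route from interferon gamma to PD-L1 was expressed in all subsets, with a median log2 difference of 0.17 from type I to type III. The list of 12 genes held the receptor subunits Ifngr1 and Ifngr2, kinases, transcription factors, SOCS inhibitors and the PD-L1 partners Cmtm4 and Cmtm6. All 12 passed the filter and limma called none in any comparison without the block. Irf1, an interferon-induced transcription factor of Cd274, had a mean FPKM of 306 ± 82.1 (SD, n = 2) in type I, 283 ± 47.1 in type II and 232 ± 28.8 in type III ECs. Socs3, a feedback inhibitor, was at 256 or more in every library. Jak1, a kinase of the receptor, had 57.9 and 44.4 in type I, 69.1 and 78.2 in type II, and 102 and 86.8 in type III. The log2 difference between type I and type III was 0.88 (limma adjusted p = 0.098). With the replicate block the limma adjusted p was 0.026, where 4.40% of tested genes were called higher.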

How the data were processed

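RNA of 3 subsets of sorted thymic ECs was sequenced as paired reads by the authors, who trimmed them, mapped them to mm9 with TopHat2 2.0.10 and deposited FPKM computed by Cufflinks 2.1.1 in each library separately, with 95% intervals (versions from the submitters' processing notes). The gene annotation is not given in the sources used here. The deposited FPKM are not scaled between libraries, and 95 spike-in and reporter rows were left out. Log2(FPKM + 1) of the 11717 genes that reached an FPKM of 1 in 2 or more libraries was fitted with limma 3.58.1 in R 4.3.3 (trend on mean expression, 1 mean per subset, all 6 libraries, 3 residual degrees of freedom), with Benjamini-Hochberg adjustment over all genes and a threshold of 0.05. Cuffdiff, which the study used, needs reads. An exact permutation test of 2 against 2 cannot give a p below 0.33. Fragments were read back from each interval, as if its half-width were 2 FPKM over the root of their number, and of 29 member values 19 came within 0.05 of a whole number. Ratios of fragments have exact binomial intervals (scipy 1.17.1).

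Deviations of same-numbered libraries from their subset means correlated at 0.18 to 0.31 over genes in all 3 pairs of subsets. The replicate number was therefore treated as a possible pairing of the libraries. With 2 libraries for each subset, the correlations cannot show what a number marks. This rests on the data, not on the labels. It was fitted as a block as an alternative.

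The members and the gene lists were chosen with earlier results of these data known. Named are the members, Selp and Ly6c1, the 10 genes nearest to Btnl9, and list genes past the threshold or, where there are none, the most abundant, besides the defining markers. Vsir, Cd80, Cd86, Flt1, Rgs5, Acta2, Myh11, Dcn, Lum, Zbtb46, Fcer1g, Entpd1, Jak1, Socs3, Skint10 and the receptors were also named after their values were seen. The same holds for Cspg4, Col1a1, Col1a2, Col3a1, Rag1, Cd3d, Cd3g and Lyz2. Vsir, Nectin2 and Nectin3 were found under older symbols. The scripts were tested on simulated data. Promoters are RefSeq's on GRCm38.p6, found for all 6 members, and each matched mm9 exactly once on its chromosome. Coordinates of genes are those of the files on mm9, counted from 1.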

Additional observations from a re-analysis of the deposited data

Results flagged for a closer look

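A reporter sequence outside the mouse chromosomes, listed as RGC-mRFP and used in no comparison, had fragments in every library, above the 3 that a count of 0 allows. Its FPKM was 18.2 and 1.83 in the type I libraries, 23.7 and 5.31 in type II, and 28.3 and 3.23 in type III, on 32, 4, 31, 11, 34 and 7 fragments, and replicate 1 was the higher in each subset.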

How the results depend on the processing

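Of the 183 alternative values of the members' log2 differences, 170 kept their side of the threshold or stayed within the spread between replicates, and 4 tests passed that had not. The latter were Btnl9 from type I to type II with the replicate block (-1.72, limma adjusted p = 0.02), and Cd276 from type I to type III with the block (-1.60, adjusted p = 0.029), with quantile normalization (-1.58, adjusted p = 0.031) and without the trend (-1.60, adjusted p = 0.028). Cd276 reached the filter only through type I, where it is high, which favours these 3 passes. Btnl9 was chosen with its type I and type II levels set against type III, so its pass is no independent test. The block changed no other call of a member. Many of the 170 values had no room to move. The block, the fits without trend or filter, the fit of 2 subsets and a left-out library of the third subset keep the difference unchanged. For Btnl9 against type III, which has no test, these kept values show nothing. A change of sign could count as kept where no test passed. Icosl (type III against type I) went from -0.05 to 0.42 without type I replicate 1. Of the untested values, the difference of Btnl9 moved to -6.65 (type III against type I) and -4.87 (type III against type II) with a pseudocount of 0.1, and to -6.32 and -4.62 with FPKM rescaled to the same sum in each library (TPM). The calls of Fgl2, Ceacam1, Entpd1, Jak1, Pdgfrb, Notch3, Kdr, Cldn5 and Eng were tried under the same alternatives, added after seeing the data. For Pdcd1lg2 the pseudocount of 0.1 gave 1.10 (type III against type I), -1.64 (type II against type I) and 2.74 (type III against type II), and TPM gave -0.99 and 1.73 for the last 2. No value could be computed for Btn2a2.

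Counts over all genes moved more. Type III against type I gave 485 genes (245 higher, 240 lower), 971 with the replicate block, 709 with TPM (292 and 417), 694 with quantile normalization (313 and 381) and 317 with no filter. Without type I replicate 1 the split was 231 and 113. With 1 library left out it was 209 to 404, the lowest without type III replicate 1, with 219 without type III replicate 2 and 249 without type I replicate 2. Type II against type I gave 46 (38 higher, 8 lower), 183 with the block (99 and 84), 103 with quantile normalization (73 and 30), 97 with TPM (74 and 23), 29 with only the 2 subsets compared, 15 without the trend and 12 with no filter. Leave-one-out counts there were 12 to 33, with 12 without type II replicate 2, 24 without type II replicate 1, 17 without type I replicate 2, 29 without type III replicate 1 and 28 without type III replicate 2. Type III against type II gave 26 (11 higher, 15 lower), 229 with the block (124 and 105), 109 with TPM (18 and 91), 90 with quantile normalization (22 and 68), 10 without the trend, 7 with only the 2 subsets compared and 0 with no filter, where limma still gave 1354 genes an unadjusted p under 0.05. It was 2 to 14 with any 1 of the 6 libraries left out. The cause was not tested. A library left out leaves 1 of its subset, which is assumed to vary like the others.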
